A study of Homo sapiens with 4 samples.

Results

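The genes described here carry out the G1/S step and DNA replication. They are 48 genes, named by symbol from what their products do, among 60048 genes in a table of nascent RNA signal from a human colorectal carcinoma cell line. The rule names genes by function and uses no measured value, though it was written with earlier results of these data known. The products fall into 8 roles: origin licensing (10 genes), helicase activation (6), polymerases and primase (9), the sliding clamp and its loader (6), single-strand binding and Okazaki fragment joining (5), nucleotide supply (4), cyclin E and E2F (4), and chromatin assembly with histone mRNA processing (4). All 48 symbols occurred once in the table, and all 48 passed the filter on low values, which left 39464 genes for testing.

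The cells were HCT116 of genotype RAD21-mAC, in which the cohesin subunit RAD21 carries an auxin-dependent degron and a fluorescent tag. The control group (2 libraries) received DMSO. The auxin group (2 libraries) was given the auxin indole-3-acetic acid (0.5 mM, 3 h), which depletes RAD21. In both groups new RNA was labelled with 0.5 mM 5-ethynyl uridine (EU) for 20 min, captured by its label and sequenced (EU-seq), so the values follow RNA made during that window. RNA from fly S2 cells, labelled with 0.2 mM EU for 2 h, was mixed in before capture. Both groups carry the tagged gene, and an effect of auxin itself cannot be told apart from one of RAD21 loss in these 4 libraries. The labels do not say whether the line is a single clone, or whether the replicates were separate cultures, so p-values measure only the spread between these libraries. The degron removes the protein, so RNA values do not check the depletion.

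The deposited values are a scaled signal per gene, and their totals ran from 61135244 to 93113007 per library. They are multiples of a fixed step in each library, but among genes of at least 10 kb only 2 to 8 genes per library lie at 1 step, against 141 to 221 at 2 steps. What a step stands for could not be settled, so the values were not treated as reads and the depth in reads is unknown. Epithelial markers were present, with KRT8 at a scaled signal between 18994 and 25008 and EPCAM between 4515 and 6076, while the leukocyte gene PTPRC lay between 22.5 and 34.8. Of 28 marker genes listed for epithelial, fibroblast, blood, endothelial and neural cells, 24 could be tested and none of these 24 passed. All signals given below are on a common scale after trimmed-mean (TMM) scaling of the libraries, with no correction for gene length unless stated.

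Before S phase, the origin recognition complex, CDC6 and CDT1 load the MCM2 to MCM7 helicase onto origins as an inactive ring, a step called licensing. CDC45, the GINS complex and MCM10 then turn the ring into a running helicase, and DNA polymerases alpha, delta and epsilon copy the strands behind it with the PCNA clamp. Many of these genes are transcribed as cells pass from G1 to S, when cyclin-dependent kinases acting on the RB proteins release E2F transcription factors, and E2F1, E2F2, CCNE1 and CCNE2 belong to that same wave.

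Nascent signal of the replication genes was lower in the auxin libraries as a group. The log2 fold change (auxin over control) was below 0 for 46 of the 48 genes, against 48.7% of all genes tested and 53.7% of the 12810 genes of high signal, here a mean of 1000 or more. The median over the 48 was -0.56, with values from -0.85 to 0.16, beside a median of 0.0089 over all genes tested and -0.020 over those with high signal. Of these 48, 29 had a log2 fold change of -0.5 or lower, a size that 8.26% of all genes and 4.82% of the genes with high signal reached. Fewer cells at the G1/S step and less new RNA per cell cannot be told apart in these bulk libraries.

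Few of the genes passed the test one by one. At a limma adjusted p under 0.05, 2 of the 48 fell, ORC1 and POLD1, where 0.4% of all genes tested and 0.991% of the genes with high signal fell. None of the 48 rose, against 0.332% of all genes. At an adjusted p under 0.1 there were 7, all lower, against 0.783% of all genes (ORC1, POLD1, E2F1, CCNE1, CDC45, MCM5 and UHRF1). At an unadjusted p under 0.05 there were 36, all lower, against 5.47% of all genes.

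**Figure D1:**
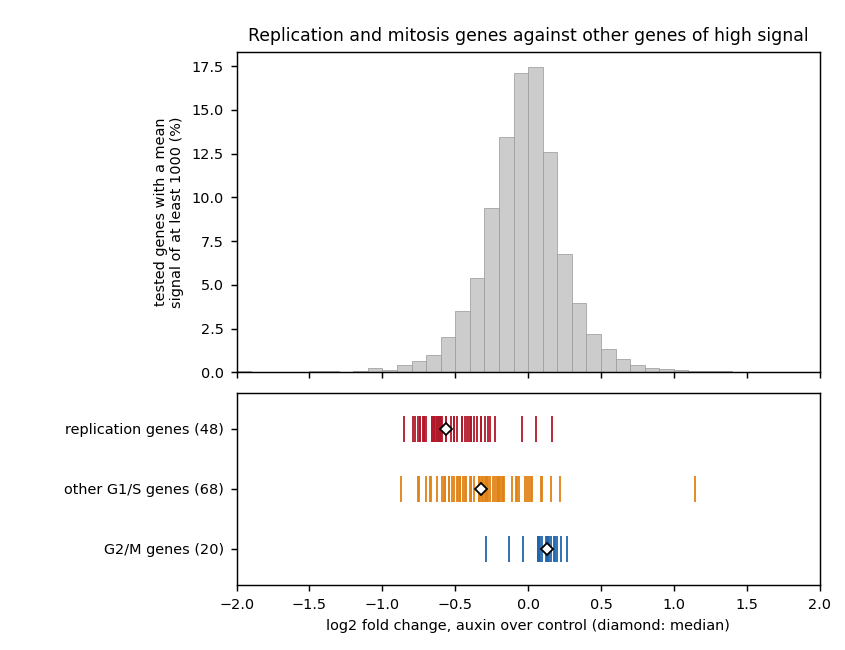
Upper panel, the percentage of tested genes with a mean scaled signal of at least 1000 in each bin of log2 fold change (auxin over control). Lower panel, 1 tick per gene for the 48 replication genes, 68 other genes of the same pathways and 20 G2/M genes, with a diamond at each median. The 3 medians lie at -0.56, -0.32 and 0.13.

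The libraries themselves show how far replicates of a group differed. The 48 genes together took 0.385% and 0.481% of all signal in control replicates 1 and 2, and 0.270% and 0.342% in auxin replicates 1 and 2. Both auxin shares lay below both control shares, but the higher auxin library was closer to the lower control library than the controls were to each other. In all 48 genes control replicate 2 exceeded control replicate 1, with a median difference of 0.32 on the log2 scale. In 47 genes, all but POLD2, auxin replicate 2 exceeded auxin replicate 1, with a median of 0.38. Both auxin libraries lay below both control libraries in 36 of the 48 genes, against 19.6% of all genes and 28.1% of the genes with high signal. No gene of the 48 had both auxin libraries above both controls, a pattern seen in 18.6% of all genes. The other 12 genes had groups that overlapped (ORC6, GINS1, GINS3, GINS4, PRIM2, RFC1, RPA3, FEN1, RRM1, RRM2, TK1 and E2F2).

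The choice of libraries moved the number of calls more than the direction. Without control replicate 1, 2 of the 48 passed (RFC3 and CCNE1, against 0.436% of all genes) and the median was -0.71. Without control replicate 2 none passed (0.178% of all genes; 21 members at an unadjusted p under 0.05) and the median was -0.38. Without auxin replicate 1 none passed (0.837% of all genes; 16 members at an unadjusted p under 0.05) and the median was -0.37. Without auxin replicate 2, 23 passed, all lower (0.995% of all genes), and the median was -0.76. The number below 0 was 48, 45, 44 and 48 in these 4 fits.

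**Figure D2:**
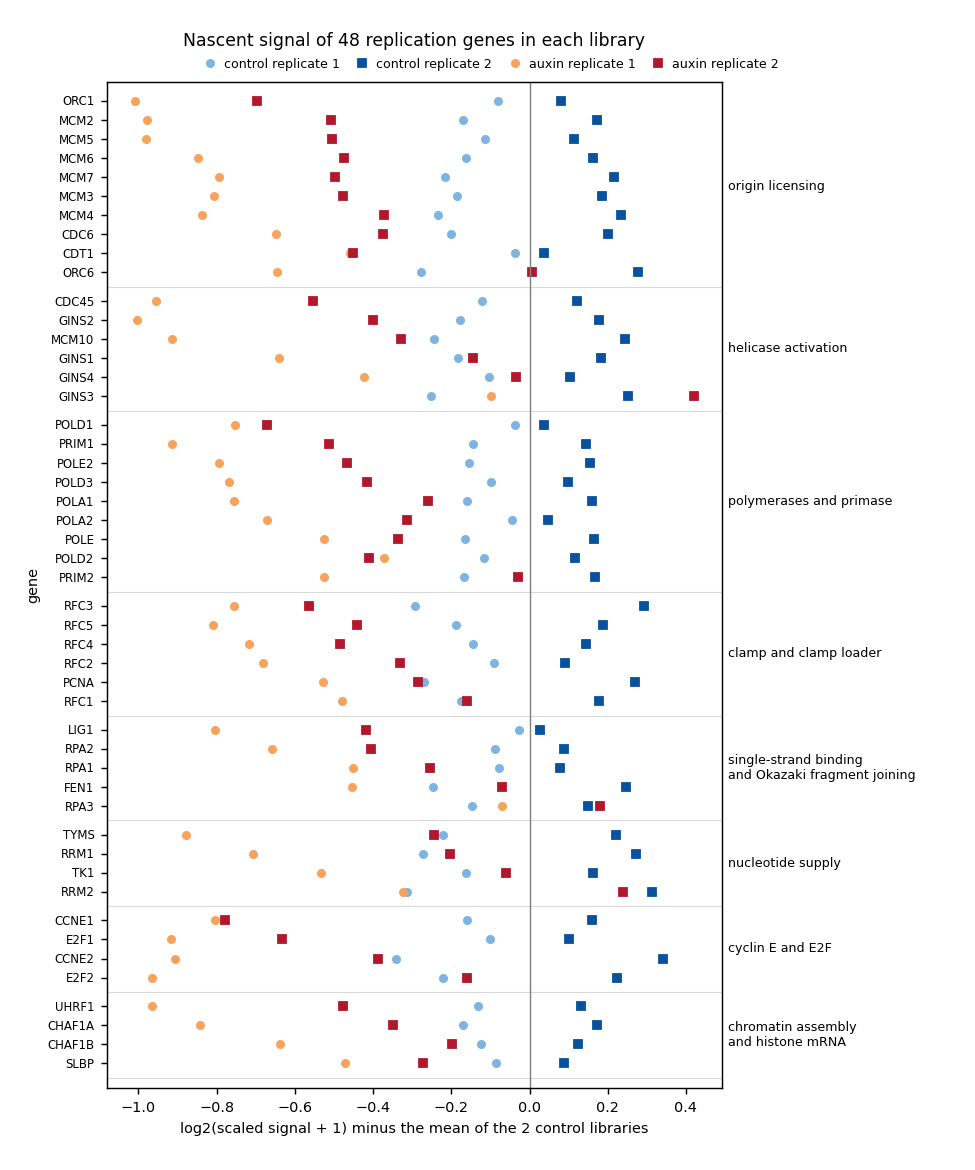
Each of the 48 genes in each of the 4 libraries, as log2(scaled signal + 1) minus the gene's mean over the 2 control libraries, grouped by role. Control replicate 2 is the highest library in 46 of the 48 genes, and auxin replicate 1 the lowest in 45.

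Origin licensing held the gene with the lowest log2 fold change. ORC1 (ENSG00000085840, minus strand of chr1:52372829-52404423 in hg38), the subunit of the origin recognition complex that comes and goes with the cell cycle in human cells, had a scaled signal of 4364 and 4878 in the control libraries and 2293 and 2845 in the auxin libraries. The auxin values lay well below the controls, with gaps within each group smaller than the gap between groups. ORC1 fell from 4621 ± 363.5 to 2569 ± 390 (SD, n = 2 per group), which is 44.6% lower, or -0.85 as a log2 fold change (SE 0.158, adjusted p by limma = 0.0425). With single libraries left out, its log2 fold change lay between -1.01 and -0.69, and whether ORC1 passed the test depended on the library left out.

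The MCM2 to MCM7 genes, which encode the ring itself, lay close together. Their 6 log2 fold changes ran from -0.74 to -0.61 with a median of -0.65. In each of the 6 both auxin libraries lay below both controls, against 19.6% of all genes. None passed at an adjusted p under 0.05, and all 6 had an unadjusted p under 0.05. MCM5 (chr22:35400140-35425431) had the smallest p of the 6, with 14072 and 16483 in the controls and 7712 and 10738 under auxin. Its log2 fold change stood at -0.74 (SE 0.162, adjusted p by limma = 0.0839). The median of the 6 was -0.84, -0.48, -0.48 and -0.84 without control replicate 1, control replicate 2, auxin replicate 1 and auxin replicate 2.

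The loaders of the ring were less uniform. CDC6, the ATPase that joins ORC, had a log2 fold change of -0.51 (SE 0.165) and CDT1, which brings the MCM ring, of -0.45 (SE 0.129). CDT1 (chr16:88803789-88809258, plus strand) had the highest signal per length of the 48 genes, with 1139 per kb in control and 830 per kb under auxin. Its scaled signal was 6064 and 6393 in the controls and 4529 and 4556 under auxin, so the groups did not overlap and the replicates were close (limma adjusted p = 0.189). ORC6, a further ORC subunit, had a log2 fold change of -0.32 (SE 0.242) and overlapping groups. Of the 10 licensing genes 9 had both auxin libraries below both controls, against 19.6% of all genes, and the median was -0.64.

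Among the helicase activators CDC45 had the smallest p. CDC45 (chr22:19479826-19520611, plus strand), which binds MCM and GINS to form the active helicase, had 7471 and 8842 in the controls and 4189 and 5533 under auxin. The groups did not overlap, and the log2 fold change was -0.76 (SE 0.162, adjusted p by limma = 0.0808). The 4 GINS subunits act as a single complex, and differences between them were not tested. GINS2 had -0.70 (SE 0.202), GINS1 -0.39 (SE 0.185), GINS4 -0.23 (SE 0.177) and GINS3 0.16 (SE 0.263). The GINS3 value comes from a span that lies almost wholly before the RefSeq start. The whole GINS4 span is covered by AC009630.1 on the opposite strand, which had -0.098, so the GINS4 value may hold its signal. MCM10, which helps start unwinding, had -0.62 (SE 0.209). The median of the 6 genes was -0.51, and 3 had both auxin libraries below both controls, against 19.6% of all genes.

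GINS3 was the lowest gene of the set in signal per length, at 2.95 per kb in control, and its position needs care. The table gives it the span chr16:58295397-58392574 (plus strand), which starts at -97074 bases from the RefSeq start. Nearly all of that span lies before the RefSeq start, so its value is hardly one of the RefSeq gene. Its scaled signal was 237 and 337 in the controls and 264 and 378 under auxin, and the groups overlapped (limma adjusted p = 0.946). Leaving out control replicate 1 gave a log2 fold change of -0.082 and leaving out auxin replicate 2 gave -0.099, so the sign depends on a single library.

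DNA polymerase delta, which makes most of the lagging strand, gave the second gene to pass the test. POLD1 (ENSG00000062822, plus strand of chr19:50384323-50418018), its catalytic subunit, had 6772 and 7129 in the controls and 4119 and 4359 under auxin. The replicates of each group lay close to each other, and the groups were far apart. POLD1 fell from 6950 ± 252 to 4239 ± 170 (SD, n = 2 per group), which is 39.0% lower, or -0.71 as a log2 fold change (SE 0.130, adjusted p by limma = 0.0400). With single libraries left out, its log2 fold change lay between -0.75 and -0.66, and whether POLD1 passed the test depended on the library left out. By limma, scaling by library total put ORC1 and POLD1 at an adjusted p of 0.0551 and 0.0514. Testing with no filter put them at 0.0568 and 0.0565, all of these above the threshold of 0.05. Neither gene passed on the deposited scale, where 0.0684% of all genes were called lower. Neither passed with no intensity trend, where no gene of the table was called. Of the POLD1 span, 6.59% is shared with another protein-coding gene model on the same strand (AC020909.1).

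The other 8 polymerase and primase genes had values from -0.71 to -0.28. POLD3 and POLD2, accessory subunits of polymerase delta, had log2 fold changes of -0.59 (SE 0.169) and -0.39 (SE 0.140). POLE, the catalytic subunit of the leading-strand polymerase, had -0.43 (SE 0.146), and POLE2, its partner, -0.63 (SE 0.163). For the polymerase alpha and primase complex, which lays down primers, PRIM1 had -0.71 (SE 0.195), POLA1 -0.51 (SE 0.179), POLA2 -0.49 (SE 0.153) and PRIM2 -0.28 (SE 0.182). None of these 8 passed the test. Of the 9 genes of the role 8 had both auxin libraries below both controls, against 19.6% of all genes.

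Some of these loci share signal with a neighbour. POLA2 lies wholly inside a gene model on the same strand (AP000944.5), and 47.99% of the PRIM1 span is shared with another (AC117378.1). Their values cannot be split from those models. PRIM2 (chr6:57317630-57646850, plus strand) is the second lowest in signal per length, at 20.7 per kb in control and 17.2 per kb under auxin. Its scaled signal was 6033 and 7600 in the controls and 4702 and 6635 under auxin. The upper auxin library exceeded the lower control library (limma adjusted p = 0.716).

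The sliding clamp PCNA and its loader, replication factor C, had a median of -0.55 over 6 genes, and none passed the test. RFC4 (chr3:186789895-186806695, minus strand), a small subunit of the loader, had the smallest p of the role. Its scaled signal was 3433 and 4198 in the controls and 2307 and 2711 under auxin, with no overlap (log2 fold change -0.60, SE 0.163, adjusted p by limma = 0.166). RFC2, RFC3 and RFC5 had -0.51 (SE 0.149), -0.66 (SE 0.188) and -0.63 (SE 0.180). The largest loader subunit gene, RFC1, had -0.32 (SE 0.162) and overlapping groups. PCNA itself had -0.41 (SE 0.191), with both auxin libraries below both controls.

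For single-strand binding and Okazaki fragment joining the median was -0.35 over 5 genes, and again none passed. LIG1 (chr19:48115446-48170603, minus strand), the ligase that seals Okazaki fragments, had the smallest p of the role. It had 11361 and 11811 in the controls and 6637 and 8669 under auxin, with no overlap (log2 fold change -0.61, SE 0.145, adjusted p by limma = 0.111). FEN1 (chr11:61792911-61797238, plus strand), the flap nuclease that trims fragments before ligation, had the second highest signal per length, 808 per kb in control and 669.5 per kb under auxin. Its scaled signal was 2901 and 4090 in the controls and 2517 and 3279 under auxin. One auxin library lay between the controls (log2 fold change -0.26, SE 0.197, adjusted p by limma = 0.775).

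Replication protein A, which coats single-stranded DNA, has 3 subunits, and differences between them were not tested. RPA2 had -0.53 (SE 0.147), RPA1 -0.35 (SE 0.130) and RPA3 0.055 (SE 0.174). RPA3 (chr7:7636518-7718607, minus strand) had 1736 and 2133 in the controls and 1832 and 2181 under auxin, so the groups interleaved (limma adjusted p = 0.979). Of its span, 94.8% is shared with UMAD1 on the opposite strand, whose log2 fold change was 0.16. Whether the counting used the strand is not given in the sources used here, so the RPA3 value may hold UMAD1 signal.

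In nucleotide supply 1 of 4 genes had both auxin libraries below both controls, and none passed the test. That pattern was seen in 19.6% of all genes and 28.1% of the genes with high signal. TYMS (chr18:657653-673578, plus strand), which makes thymidylate, had 7050 and 9574 in the controls and 4466 and 6931 under auxin. The upper auxin value lay just below the lower control value (log2 fold change -0.56, SE 0.210, adjusted p by limma = 0.357). Of the TYMS span, 20.4% is shared with ENOSF1 on the opposite strand, which had -0.35. The TYMS value may therefore hold ENOSF1 signal. RRM1 and RRM2 encode the large and small subunits of ribonucleotide reductase, and had -0.45 (SE 0.209) and -0.043 (SE 0.226). RRM2 (chr2:10120698-10131418, plus strand) had 4178 and 6450 in the controls and 4147 and 6122 under auxin. Its replicates differed far more than its groups (limma adjusted p = 0.989), and leaving out control replicate 2 or auxin replicate 1 turned the log2 fold change to 0.27 and 0.25. TK1, the thymidine salvage kinase, had -0.30 (SE 0.173).

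Cyclin E and E2F had the lowest median of the 8 roles, -0.71 over 4 genes, with all 4 at -0.5 or lower and none past the test. E2F1 (chr20:33675477-33686385, minus strand), a transcription factor of the G1/S wave, had 5176 and 5958 in the controls and 2943 and 3580 under auxin. The groups stood well apart (log2 fold change -0.77, SE 0.154, adjusted p by limma = 0.0578). CCNE1 (chr19:29811991-29824312, plus strand), a partner of the kinase CDK2 at S phase entry, had 2395 and 2986 in the controls. Its auxin libraries were almost equal at 1532 and 1560 (log2 fold change -0.79, SE 0.166, adjusted p by limma = 0.0738). Their paralogs CCNE2 and E2F2 had -0.65 (SE 0.239) and -0.56 (SE 0.245), and the groups of E2F2 overlapped.

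Genes for chromatin behind the fork had a median of -0.51 over 4 genes, and none passed the test. In all 4 both auxin libraries lay below both controls, against 19.6% of all genes. UHRF1 (chr19:4903080-4962154, plus strand), which recruits the maintenance DNA methyltransferase to newly copied DNA, had the smallest p. It had 23294 and 28004 in the controls and 13085 and 18341 under auxin (log2 fold change -0.72, SE 0.160, adjusted p by limma = 0.0874). The table starts UHRF1 at -6421 bases from the RefSeq start. CHAF1A and CHAF1B, subunits of the histone chaperone CAF-1, had -0.60 (SE 0.175) and -0.42 (SE 0.168). SLBP, which binds the stem-loop of histone mRNA, had -0.37 (SE 0.128).

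**Figure D3:**
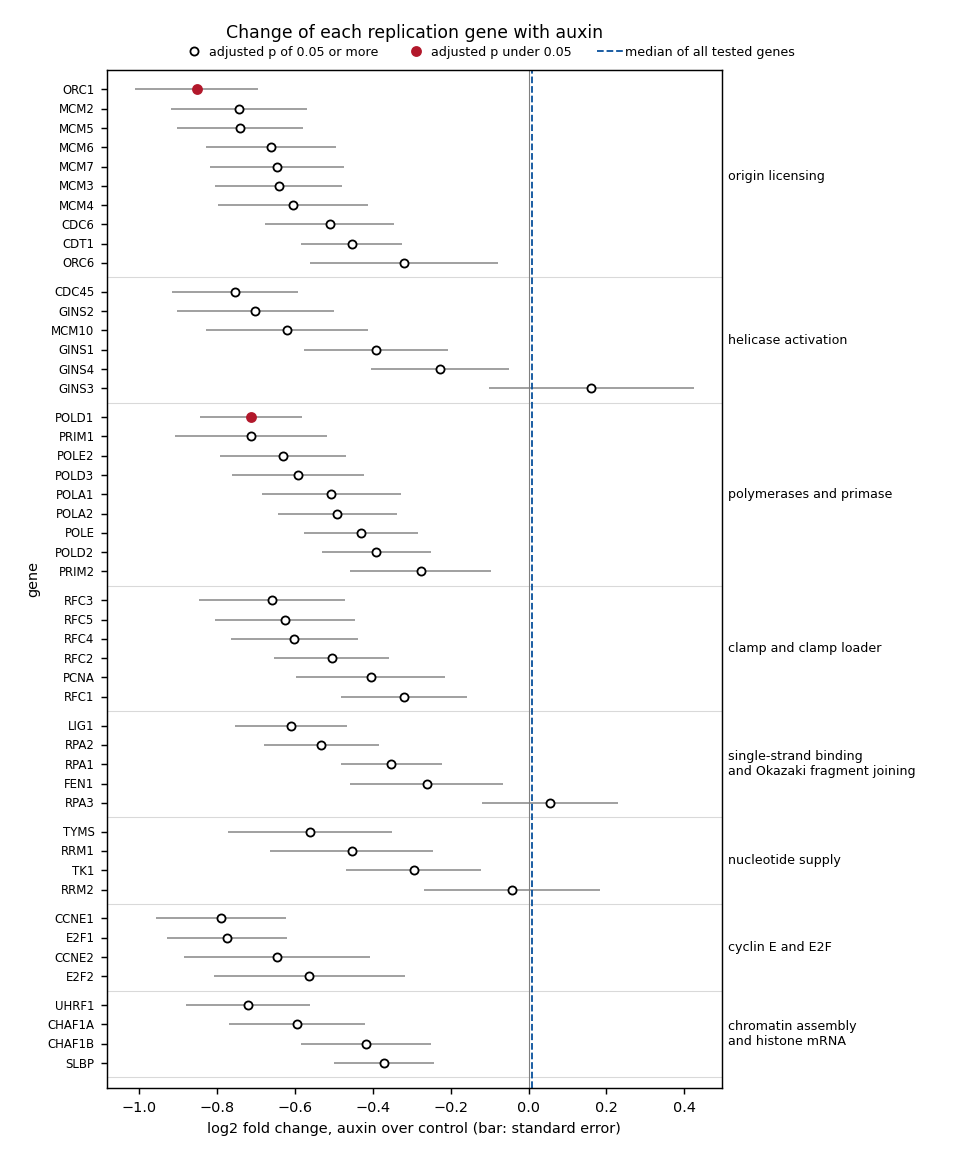
Log2 fold change (auxin over control) of each of the 48 genes with its standard error from limma, grouped by role. Filled points mark the 2 genes with an adjusted p under 0.05, ORC1 and POLD1, and only GINS3 and RPA3 lie above 0.

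Ratios between partners within a library cancel what scales a whole library, and in 4 of 6 pairs computed the groups did not overlap. These pairs were chosen after their values were seen and carry no test, and no share over other gene pairs is given beside the count. The log2 ratio of RRM2 to RRM1 was -0.26 and -0.18 in the controls and 0.16 and 0.22 under auxin. That of RPA3 to RPA2 was -1.61 and -1.49 in the controls and -0.96 and -0.97 under auxin, with the overlap of RPA3 and UMAD1 described above. For GINS3 to GINS2 it was -4.60 and -4.45 in the controls and -3.62 and -3.70 under auxin, with the GINS3 span as described above. For GINS1 to GINS2 it was 0.067 and 0.077 in the controls and 0.44 and 0.33 under auxin. In these 4 pairs the groups did not overlap, although the groups of RRM2, RPA3, GINS3 and GINS1 taken alone did. The ratio of CCNE2 to CCNE1 (0.053, 0.42, 0.13 and 0.63 in control 1, control 2, auxin 1 and auxin 2) overlapped between groups, as did that of E2F2 to E2F1 (-0.46, -0.22, -0.39 and 0.13).

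The size of the change showed little relation to gene length or level. Across the 48 genes, which share the same 4 libraries, the Spearman correlation of the log2 fold change was 0.028 with span and -0.11 with control signal per kb. The genes lie on 20 chromosomes, 27 on the plus and 21 on the minus strand, with spans from 4.33 to 329 kb (median 24.4 kb). Of the 48, 24 overlap no other tested gene. Those 24 were all below 0 with a median of -0.51, and 1 of them (ORC1) passed the test.

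The choice of genes read no promoter sequence, but many of them belong to the wave that follows E2F release, as described above. The share of E2F words is therefore not independent of that choice. RefSeq promoters (GRCh38.p14, from 250 bases before to 50 bases after the start) were matched for 41 of the 48 genes, and in 31 of the 41 the table's start lay within 100 bases of RefSeq's. A perfect E2F word (TTTCCCGC, TTTCGCGC, TTTGCCGC or TTTGGCGC, on either strand, with overlapping words counted as 1 promoter) occurred in 20 of the 41, which is 48.8%. It occurred in 3.31% of all 35116 promoters and 5.68% of the 8861 promoters of genes with high signal. Of the promoters matched for other pathway genes (56) and G2/M genes (16), 21.4% and 12.5% held it. The CCAAT word, on either strand, was in 56.1% of the 41 and 34.6% of all promoters. It was in 51.8% of the other pathway promoters and 81.2% of the G2/M promoters, so it is not particular to the 48 genes. The word TTTGAA, the core of the CHR element of G2/M promoters, was in 2.44% of the 41, in 62.5% of the 16 promoters matched for G2/M genes, and in 15.2% of all promoters. A match to a word is a description of the letters and not of binding.

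The 200 bases before the RefSeq start are shown for both genes that passed the test and for 4 genes that carry E2F words, each 5′ to 3′ on the gene's own strand, with E2F words in capitals. ORC1 (chr1:52404424-52404623, minus strand) and POLD1 (chr19:50384123-50384322, plus strand) have no perfect E2F word in these bases. Near matches were not counted, and the ORC1 bases hold attggcgc, which differs from TTTGGCGC only in its first letter. E2F1 (chr20:33686386-33686585, minus strand) has 2, MCM6 (chr2:135876444-135876643, minus strand) has 4 as 2 overlapping pairs, GINS2 (chr16:85688955-85689154, minus strand) has 1 and TYMS (chr18:657453-657652, plus strand) has 1.
ORC1: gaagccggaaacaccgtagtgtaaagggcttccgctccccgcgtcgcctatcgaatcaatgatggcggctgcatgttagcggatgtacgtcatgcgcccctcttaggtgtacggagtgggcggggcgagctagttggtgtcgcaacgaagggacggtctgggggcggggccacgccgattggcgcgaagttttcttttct
POLD1: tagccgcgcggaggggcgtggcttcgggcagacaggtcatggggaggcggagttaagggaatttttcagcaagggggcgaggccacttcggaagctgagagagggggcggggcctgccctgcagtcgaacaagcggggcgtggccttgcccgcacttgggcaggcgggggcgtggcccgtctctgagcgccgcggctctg
E2F1: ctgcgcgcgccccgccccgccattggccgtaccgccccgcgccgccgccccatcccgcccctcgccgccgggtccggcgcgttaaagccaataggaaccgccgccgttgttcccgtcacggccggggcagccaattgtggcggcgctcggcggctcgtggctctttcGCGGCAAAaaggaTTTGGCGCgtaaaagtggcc
MCM6: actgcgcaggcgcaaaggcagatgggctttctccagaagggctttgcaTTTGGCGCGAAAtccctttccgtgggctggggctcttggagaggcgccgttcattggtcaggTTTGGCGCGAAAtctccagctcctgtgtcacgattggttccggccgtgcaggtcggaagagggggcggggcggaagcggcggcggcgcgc
GINS2: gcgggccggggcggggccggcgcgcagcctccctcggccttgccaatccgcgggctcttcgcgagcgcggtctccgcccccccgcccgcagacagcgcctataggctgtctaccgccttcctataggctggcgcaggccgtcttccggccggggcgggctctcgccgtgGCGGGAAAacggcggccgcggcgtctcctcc
TYMS: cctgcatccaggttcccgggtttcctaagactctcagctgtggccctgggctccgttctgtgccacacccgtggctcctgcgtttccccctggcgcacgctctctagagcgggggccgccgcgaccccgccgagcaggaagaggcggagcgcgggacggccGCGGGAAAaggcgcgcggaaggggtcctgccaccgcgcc

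Changes of the genes with and without an E2F word were set side by side, and the difference was not tested. The 20 genes with a word had a median log2 fold change of -0.59, from -0.77 to 0.16, with 14 at -0.5 or lower. The 21 matched genes without a perfect word had a median of -0.45, from -0.85 to -0.043, with 10 at -0.5 or lower. That lower end is ORC1, whose near match described above was not counted. The upper end of the first range is GINS3, whose span in the table lies almost wholly before the RefSeq start that the promoter belongs to.

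Some of the genes start close to another gene read the other way. By the table's starts, a tested protein-coding gene starts within 1000 bases on the opposite strand in 13 of the 48. For GINS3 and UHRF1 those starts lie at -97074 and -6421 bases from RefSeq's, so these 2 pairs do not mark the RefSeq promoter. The 13 partners had a median log2 fold change of -0.027, with 9 below 0 and a range from -0.37 to 0.50, and their replication genes had a median of -0.43. None of the partners passed the test, and 3 had an unadjusted p under 0.05, of which 2 were lower. PRPF38A, a splicing factor gene, starts 179 bases from ORC1 and had -0.0012 (SE 0.156). UFD1, a cofactor of the segregase VCP, starts 633 bases from CDC45 and had 0.21 (SE 0.132). CDS2, an enzyme of phospholipid synthesis, starts 382 bases from PCNA and had 0.50 (SE 0.147). PRKDC, the catalytic subunit of DNA-dependent protein kinase, starts 800 bases from MCM4 and had -0.37 (SE 0.102). Other pairs lay close together. SMYD4 had -0.33 (SE 0.130) beside -0.35 for RPA1, and AFMID had -0.26 (SE 0.156) beside -0.30 for TK1. In 12 of the 13 pairs, all but that of GINS3, the partner's value was above that of its replication gene. The median of all genes tested, 0.0089, also lay above these 12 replication genes. The difference within pairs was not tested.

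**Figure D4:**
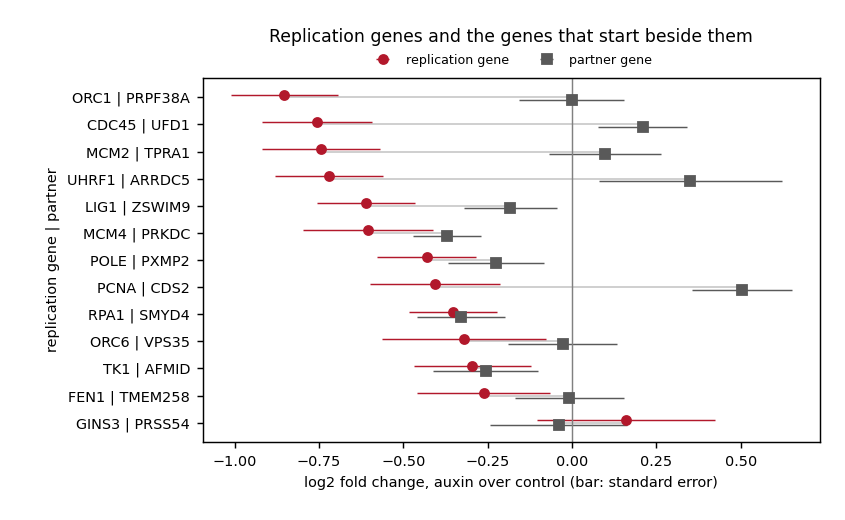
Log2 fold change (auxin over control, with limma standard errors) of 13 replication genes and of the protein-coding gene that starts within 1000 bases on the opposite strand. The partners have a median of -0.027 and the replication genes of -0.43.

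The other genes of these pathways, 68 in number and all tested, had a median log2 fold change of -0.32. Of these, 60 were below 0, against 48.7% of all genes. In 43 both auxin libraries lay below both controls and in 4 above, against 19.6% and 18.6% of all genes. The test called 1 higher and 2 lower, against 0.332% and 0.4% of all genes. All of these called genes are listed under G1/S control. At an unadjusted p under 0.05, 29 were lower and 1 higher, where 5.47% of all genes were lower. The medians of the other nucleotide supply genes, chromatin genes, fork components, licensing and firing factors, and G1/S control genes were -0.47, -0.40, -0.34, -0.31 and -0.27.

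CCND1 (chr11:69641156-69654474, plus strand) encodes cyclin D1, which starts RB phosphorylation in G1. It had 27207 and 28593 in the controls and 17126 and 16078 under auxin, and fell from 27900 ± 980 to 16602 ± 741 (SD, n = 2 per group; log2 fold change -0.75, SE 0.104, adjusted p by limma = 0.0111). CDK6 (chr7:92604921-92836573, minus strand), a kinase partner of cyclin D, had 19592 and 24676 in the controls and 11945 and 14198 under auxin. It fell from 22134 ± 3595 to 13072 ± 1593 (log2 fold change -0.76, SE 0.140, adjusted p by limma = 0.0423). In both genes all auxin values lay below all control values. Without control replicate 2 the adjusted p was 0.0591 for CCND1 and 0.17 for CDK6. Scaling by library total gave 0.0514 for CDK6.

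CDKN1B (chr12:12715058-12721204, plus strand), which encodes the cyclin-dependent kinase inhibitor p27, went the other way. It had 933 and 875 in the controls and 1963 and 2046 under auxin, with close replicates and groups far apart. CDKN1B rose from 904 ± 41.3 to 2005 ± 58.5 (SD, n = 2 per group; log2 fold change 1.15, SE 0.163, adjusted p by limma = 0.0129), and its adjusted p was 0.0502 without control replicate 2. Its span overlaps another gene model (AC008115.3). Of the other origin recognition subunits, ORC2 had a log2 fold change of -0.23 (SE 0.140), ORC3 -0.11 (SE 0.147), ORC4 0.093 (SE 0.136) and ORC5 -0.21 (SE 0.148). None of these 4 had an unadjusted p under 0.05, and their differences from ORC1 were not tested.

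Genes of the later G2/M wave had values on both sides of 0. Of 20 listed mitotic genes, all tested, none passed the test and none had an unadjusted p under 0.05. Their log2 fold changes ran from -0.29 to 0.27 with a median of 0.13, and 17 were above 0. The G2/M genes took 0.0808% and 0.111% of all signal in the controls and 0.0941% and 0.115% under auxin, so the groups overlapped. Their median was -0.096, 0.26, 0.20 and -0.012 without control replicate 1, control replicate 2, auxin replicate 1 and auxin replicate 2, so its sign depends on single libraries.

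The G2/M genes also differed between replicates. Their median difference was 0.43 between control replicates 2 and 1, and 0.22 between auxin replicates 2 and 1, in the same direction as for the replication genes. Across the 4 pairings of an auxin with a control library, the median difference of the replication genes was -0.58, -0.89, -0.20 and -0.52, below 0 in each. For the G2/M genes the same 4 pairings gave 0.16, -0.23, 0.38 and 0.063. The part that cell cycle phase plays in the values of either list was not tested.

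**Figure D5:**
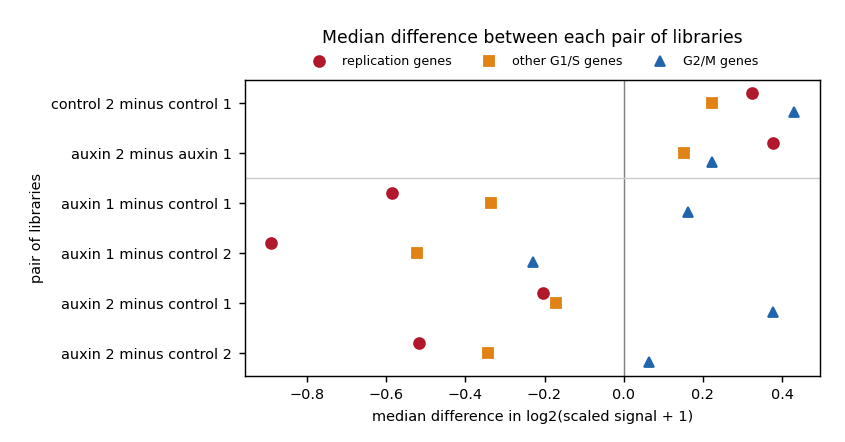
Median difference in log2(scaled signal + 1) between each pair of libraries for the 48 replication genes, the 68 other pathway genes and the 20 G2/M genes. The upper rows compare replicates of a group, at 0.32 and 0.38 for the replication genes, and the lower rows compare an auxin with a control library, from -0.89 to -0.20.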

How the data were processed

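EU-seq of 4 libraries (2 control, 2 auxin) was read from 1 table of the authors, whose deposited values are a signal per gene multiplied by a factor per library. The origin of that factor and the counting tool are not given in the sources used here. Per the submitters' processing notes, Trimmomatic 0.39, Bowtie2 2.4.5 and deepTools 3.5.1 were used, with builds hg38 and dm6. Starts in the table count from 0, and 1 was added.

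A gene was kept if 2 or more libraries held a signal of 10 or more, adjusted to the median library total, and its sum reached 15. Trimmed means (trims of 30% and 5%) set the library scale, and log2(scaled signal + 1) was tested with limma 3.58.1 in R 4.3.3 (intensity trend, two-sided, Benjamini-Hochberg over 39464 genes, threshold 0.05). The fold change is on that log2 scale, which understates changes of low genes. The fit was tested on simulated data. Standard errors are those of limma.

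Values per library were given for genes past the threshold, for the smallest p in each role, for the 3 highest and 3 lowest log2 fold changes, and for the 2 highest and 2 lowest in signal per kb. MCM5 and the partners of printed pairs were added after their values were seen. The 48 genes and all lists were chosen with earlier results of these data known. Alternatives covered scaling, pseudocount, filter, trend, replicate block, threshold, overlapping genes and leaving out each library.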

Additional observations from a re-analysis of the deposited data

How the results depend on the processing

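Of the 48 replication genes, 2 passed the test as reported, and the number was 2 with median-ratio scaling, a pseudocount of 0.1 or a mean of at least 50, and 3 with a pseudocount of 10. It was 0 with scaling by library total, on the deposited scale and with no filter. It was also 0 with no intensity trend. All fits used limma, the only tool run. Of all genes, 0.385%, 0.38%, 0.46% and 0.454% were called lower with median-ratio scaling, pseudocount 0.1, a mean of at least 50 and pseudocount 10. Scaling by library total, the deposited scale and no filter gave 0.324%, 0.0684% and 0.215%. With no intensity trend no gene of the table was called. The number of replication genes that passed was 1 among those that overlap no other tested gene, and 7 at an adjusted p under 0.1 (0.783% of all genes). Leaving out single libraries gave 0 to 23. The median log2 fold change stayed between -0.76 and -0.37 under every alternative. The number of genes with separated groups was 36 as reported, all lower, against 19.6% of all genes. It was 19 on the deposited scale, all lower, where the share over all genes was not computed. Of the 68 other pathway genes 3 passed as reported, 0 on the deposited scale and with no intensity trend, and 0 to 15 with a library left out. Where a group was left with 1 library, that library was assumed to vary like the other group.

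The sign of 4 genes depended on single libraries, with ranges over the 4 fits of -0.099 to 0.43 for GINS3, -0.084 to 0.20 for RPA3, -0.35 to 0.27 for RRM2 and -0.65 to 0.013 for ORC6.

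With the replicate number as a block, 41 of the 48 genes and 36 of the other 68 passed the test. All were lower but 1 of the 36, and 5.9% of all genes were called lower. In that fit limma took each gene's variance wholly from the trend over all genes, so its p-values do not measure the gene's own spread. The same held on the deposited scale and in the fits without auxin replicate 1 or without auxin replicate 2. The labels do not say that a number marks a shared day, and with 2 pairs it is unknown whether the replicates are paired. The replicate differences of control and auxin correlated at Pearson r = 0.231 and Spearman rho = 0.306 across all tested genes, at 0.645 and 0.594 across those with a mean of 1000 or more, and at a Spearman rho of 0.491 across the 48 (genes are not independent replicates). The causes of these shifts were not tested.

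A count test, planned if the table held reads, was not run, since what a step of these values stands for could not be settled. Depth in reads is unknown, and no counting error is given.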

Other observations

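The locus of MCM7 also carries the microRNA genes MIR25, MIR93 and MIR106B in its introns, and all of them were measured. Their log2 fold changes were -0.71, -0.75 and -0.91 (limma adjusted p = 0.344, 0.368 and 0.303), beside -0.65 for MCM7. MIR4747, inside UHRF1, had -0.70 (limma adjusted p = 0.42), beside -0.72 for UHRF1. None of these 4 passed the test. They lie within the span of their host genes, so their signal cannot be told apart from that of the host transcript.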
